A study of Sus scrofa with 28 samples.

Results

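CCL2, CCL8, CCL3L1, CCL4, CCL5 and CXCL9, chemokines that draw monocytes and lymphocytes into tissue, were followed in swine lung after inhalation of sulfur mustard vapor. Their probe sets were those of the porcine array whose annotation gives exactly 1 symbol among these names, which found 1 probe set for each of the 6 genes, out of 6765 genes with such a probe set. Lung RNA came from 10 female pigs, all anesthetized, intubated and exposed lying on their backs for 10 min, with the lungs taken 12 h later. The 3 air animals (28, 29 and 44) received no agent, the 3 low-dose animals (31, 32 and 33) received 60 µg/kg and the 4 medium-dose animals (34, 39, 41 and 42) received 100 µg/kg of HD, the label's name for sulfur mustard, which alkylates DNA and proteins and damages the airway lining. The left apical, median and caudal lobes were each put on 1 array, giving 9 air, 9 low and 10 medium arrays, because animal 39 had no caudal and animal 41 no apical array. The labels give no strain and no age, and do not say when the animals were handled relative to each other.

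Chemokines are small secreted proteins that bind receptors on leukocytes and steer them along a gradient. CCL2 and CCL8 are ligands for receptors of monocytes, above all CCR2 for CCL2. CCL3L1, CCL4 and CCL5 attract T cells, NK cells and macrophages, and CXCL9 binds CXCR3 on activated T and NK cells. NF-kappaB signalling induces CCL2, CCL3L1 and CCL4 in macrophages and other cells, interferon gamma induces CXCL9, and T and NK cells store or make much of the CCL5 and CCL4 of a tissue. In the RefSeq gene order the 5 CC chemokines lie on 1 chromosome, with no protein-coding gene between CCL4 and CCL3L1 and only CCL11 between CCL8 and CCL2, while CXCL9 lies on another chromosome.

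The signals are the authors' linear probe set intensities, whose trimmed mean, with 2% of probe sets cut from each end, came to 150 on all 28 arrays, with median signals from 55.6 to 64.4. An index of RNA quality, which averages the log2 ratios of 3' over 5' control probe sets, was 1.34 in medium animal 39 and 0.169 to 0.833 in the other 9 animals. Of 9 surfactant and club cell markers, 4 were measured, all of them surfactant genes (SFTPA1, SFTPB, SFTPC and SFTPD), with a summed signal of 4099 to 7738. Endothelial markers (8 of 8 measured) summed to 5547 to 7156, though KDR among them was dim (mean signal 17.07). In contrast, 8 of 9 striated and heart muscle markers summed to 203.2 to 378.7. All 6 chemokine probe sets were in the brighter part of the array by mean signal. The percentile of the mean signal among all probe sets was 94.6 for CXCL9, 93.4 for CCL2, 92.2 for CCL5, 85.4 for CCL4, 72.5 for CCL8 and 67.2 for CCL3L1. These percentiles place a probe set among others and do not rank the genes' RNA, since probe sets differ in how strongly they bind.

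CCL2 signal was higher in the medium animals than in the air animals, most of all in the median lobe, but the difference did not pass the test over all probe sets. Over the lobes of an animal, mean CCL2 signal was 976.7, 711.0, 1083 and 688.1 in medium animals 34, 39, 41 and 42. It was 594.6, 544.8 and 467.5 in low animals 31, 32 and 33, and 698.8, 256.4 and 406.9 in air animals 28, 29 and 44. Air animal 28 lay within the medium range once lobes were adjusted for, so air and medium overlapped, while every medium animal was above every low animal. The means were 864.7 ± 195.8 (SD, n = 4) in medium, 535.6 ± 64.04 (SD, n = 3) in low and 454 ± 224.9 (SD, n = 3) in air animals. On the normalized log2 scale, medium differed from air by 0.79 ± 0.28 (SE; unadjusted p = 0.0196, adjusted p = 0.212, limma), a fold of 1.74, and 4 of 4 medium animals exceeded the mean of the air group. Without air animal 29 the difference was 0.45, and without air animal 28 it was 1.15. Medium differed from low by 0.52 ± 0.28 (adjusted p = 0.357), and low from air by 0.28 ± 0.30 (adjusted p = 0.826), which was -0.07 without air animal 29.

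In the other direction, CCL8, CXCL9 and CCL5 had lower signals in medium than in low animals, again with no call. CCL8 averaged 350.3, 167.4 and 217.0 over the lobes of low animals 31, 32 and 33, and 238.3, 109.0, 58.13 and 64.93 in medium animals 34, 39, 41 and 42. Air animals 28, 29 and 44 had 237.8, 133.9 and 132.9. Medium animal 34 was the one medium animal within the low range, and the other 3 were below every air and low animal. The difference of medium from low was -1.14 ± 0.40 (unadjusted p = 0.0184, adjusted p = 0.20), a fold of 0.454, and 0 of 4 medium animals exceeded the mean of the low group. Without medium animal 34 it was -1.51 and CCL8 was called (adjusted p = 0.0305). In the median lobe, leaving out that animal also raised the calls over all probe sets, to 1312 of 23999 from 5. The call is therefore not read as particular to CCL8. Medium differed from air by -0.68 ± 0.40 (adjusted p = 0.429) and low from air by 0.46 ± 0.43 (adjusted p = 0.787). The first was -1.05 without medium animal 34, -0.43 without air animal 28 and -0.37 in the 8 animals with all lobes, and the second 0.71 without air animal 28 and 0.24 without low animal 31.

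CXCL9, the interferon gamma induced ligand, varied widely among unexposed animals. Its mean signal over lobes was 1357, 424.7 and 649.4 in air animals 28, 29 and 44, and 538.3, 1259 and 897.0 in low animals 31, 32 and 33. In medium animals 34, 39, 41 and 42 it was 677.6, 404.8, 331.8 and 428.7. The medium animals were all below the means of the other groups but overlapped air animal 29 and low animal 31. The group means were 810.4 ± 486.5 (SD, n = 3) in air, 898.1 ± 360.4 (SD, n = 3) in low and 460.7 ± 150.3 (SD, n = 4) in medium animals. Medium differed from low by -0.95 ± 0.40 (unadjusted p = 0.0415, adjusted p = 0.257) and from air by -0.73 ± 0.40 (adjusted p = 0.399). The difference from air was -0.28 without air animal 28, -1.11 without air animal 29 and -0.46 in the 8 animals with all lobes. Low differed from air by 0.22 ± 0.43 (adjusted p = 0.915), which was 0.68 without air animal 28, -0.16 without air animal 29 and -0.06 without low animal 32.

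CCL5, the T and NK cell product, was the least variable of the 6. It averaged 522.1, 549.4 and 714.5 over the lobes of air animals 28, 29 and 44, and 574.5, 705.6 and 556.3 in low animals 31, 32 and 33. Medium animals fell into a pair at 563.2 (34) and 571.2 (42), within the air and low ranges, and a pair at 367.7 (39) and 335.5 (41), below every other animal. The differences were -0.40 ± 0.21 from air (adjusted p = 0.373) and -0.45 ± 0.21 from low (adjusted p = 0.296), with 0 of 4 medium animals above either mean. Animals 39 and 41 are also the 2 that lack a lobe, and in the 8 animals with all lobes the difference from air was -0.05 (adjusted p = 0.910) and that from low -0.095 (adjusted p = 0.861). Those 8 leave out the lower pair itself. In the median lobe, which all 4 medium animals have, signal was 326.5 and 269.5 in animals 39 and 41, and 594.5 and 500.9 in animals 34 and 42. The part of the missing lobes was not tested. With the RNA index as a covariate the difference from low was -0.28 and that from air -0.42. Without air animal 44 the difference from air was -0.25. Low differed from air by 0.05 ± 0.22 (adjusted p = 0.972).

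CCL3L1 and CCL4, the adjacent pair of macrophage inflammatory chemokines, had no consistent direction over the medium animals. CCL4 averaged 542.3 in medium animal 34 and 115.6 in medium animal 41, the highest and lowest of the 10 animals, with 393.5 and 249.3 in animals 39 and 42. Air animals 28, 29 and 44 had 442.4, 257.7 and 347.3, and low animals 31, 32 and 33 had 316.5, 334.7 and 323.1. The air and low animals therefore lay inside the medium range, and the difference of medium from air was -0.26 ± 0.39 (adjusted p = 0.790). That difference turned to 0.07 in the 8 animals with all lobes and 0.11 without medium animal 41. CCL4 also differed by -0.20 ± 0.39 from low (adjusted p = 0.826) and by -0.06 ± 0.42 between low and air (adjusted p = 0.979).

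CCL3L1 averaged 242.6, 108.9 and 153.9 in the same air animals and 122.2, 122.1 and 130.3 in the low animals. Medium animals 34, 39, 41 and 42 had 192.5, 136.8, 72.48 and 73.99, so that 2 medium animals were below all others. Its differences were -0.46 ± 0.31 for medium from air (adjusted p = 0.492), -0.12 ± 0.31 for medium from low (adjusted p = 0.871) and -0.34 ± 0.33 for low from air (adjusted p = 0.799). Without air animal 28 the differences of medium and low from air were -0.19 and -0.07, and without air animal 29 they were -0.70 and -0.58, while without medium animal 41 or 42 medium differed from air by -0.29 or -0.30. Whether the CCL3L1 probe set also binds RNA of another CCL3-like gene was not tested.

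**Figure D1:**
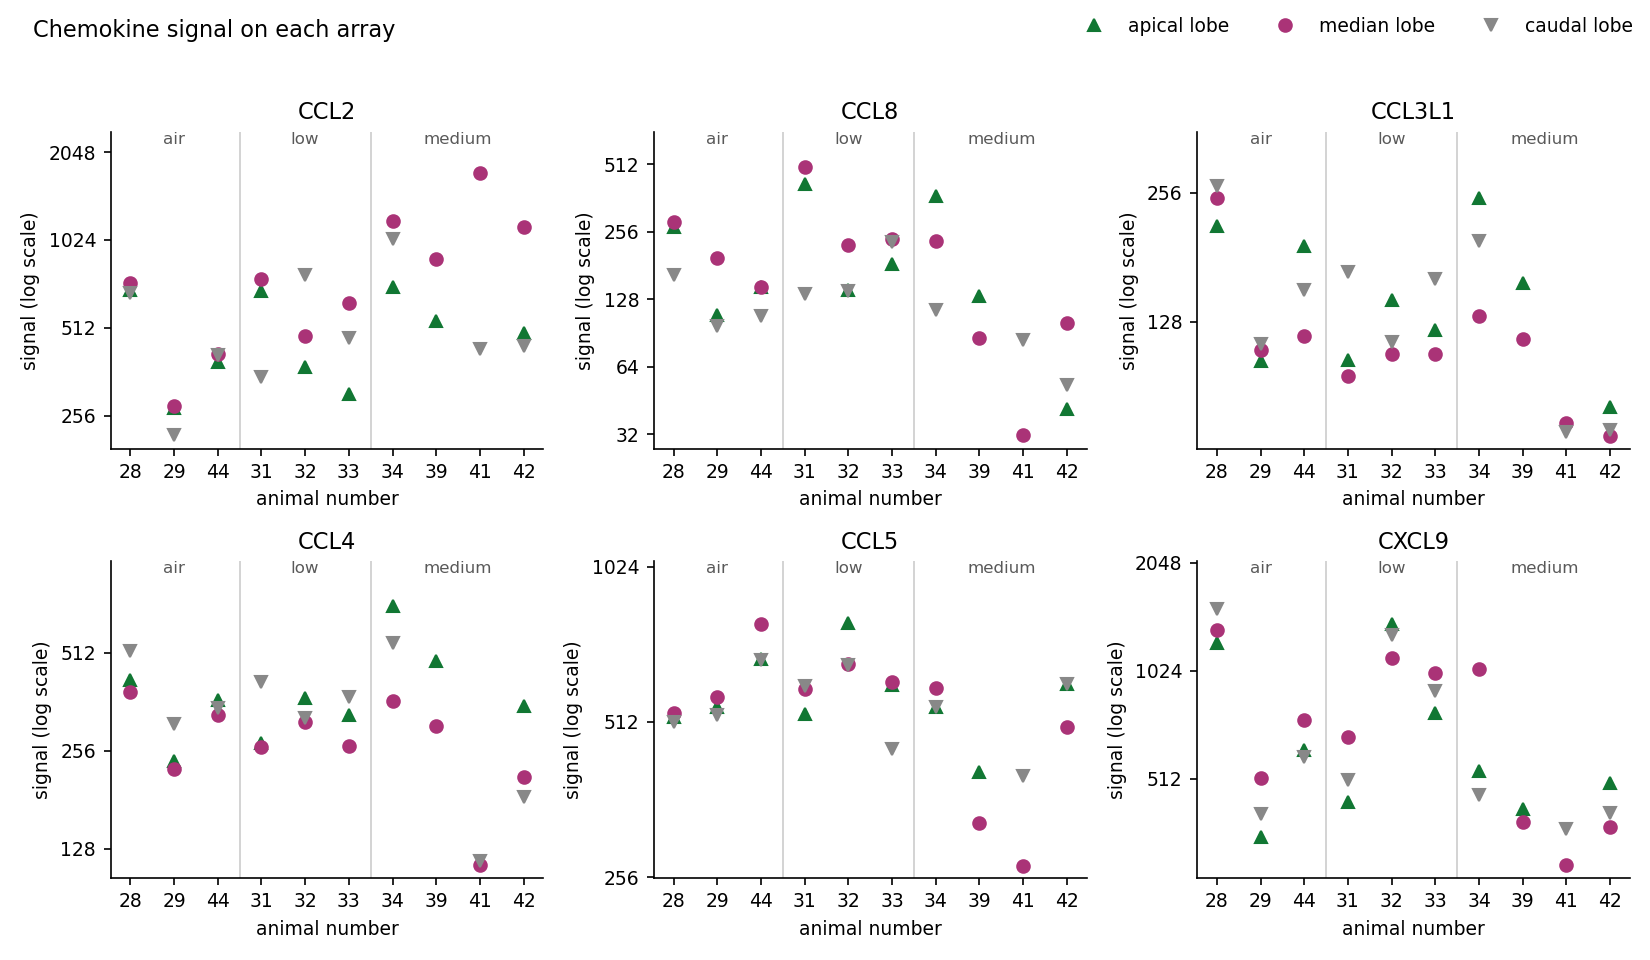
Deposited signal (linear intensity, log axis) of each chemokine on each of the 28 arrays, by animal number, with triangles, circles and inverted triangles for the apical, median and caudal lobes and grey lines between exposures. CCL2 is highest in the median lobe of medium animals (880.5 to 1733), and CCL8 spans 31.71 to 496.4, the widest span of the 6 probe sets relative to its lowest value.

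None of the 6 chemokines was called at an adjusted p under 0.05 in the 3 exposure comparisons over animals. Few probe sets were: 0% of 23999 in low versus air, 0.129% in medium versus air and 0.00417% in medium versus low. At an unadjusted p under 0.05 there were 0, 1 (CCL2) and 2 (CCL8 and CXCL9) of the 6, against 7.41%, 16.6% and 18.2% of all probe sets. Signs were mixed in low versus air, where 4 of 6 differences were above 0, while 1 of 6 (CCL2) was above 0 in medium versus air and in medium versus low. These last comparisons share the medium animals, and the first shares its animals with both. The animal values of the groups did not overlap for 0 of 6 in low versus air (18.6% of all probe sets), 0 of 6 in medium versus air (13.5%) and 1 of 6, CCL2, in medium versus low (13.9%). With bulk tissue, fewer cells of a type and less RNA per cell cannot be told apart, for these values and all that follow.

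**Figure D2:**
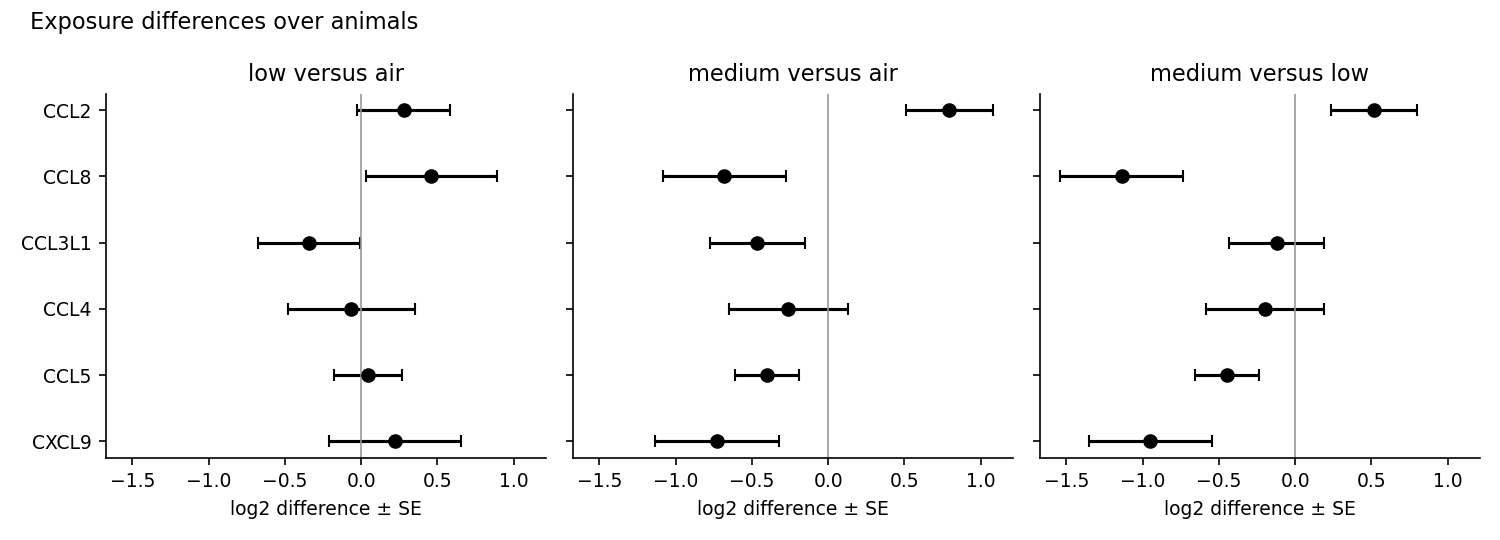
Log2 difference between exposures for each chemokine over animals, with points for the limma estimate and bars for 1 standard error (3 air, 3 low and 4 medium animals). CCL2 lies at 0.79 in medium versus air, and CCL8 at -1.14 in medium versus low is the farthest from 0, but no difference passed an adjusted p under 0.05.

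The estimated CCL2 differences of medium from air and from low were largest in the median lobe. A test of whether lobe differences vary with exposure did not call CCL2 (adjusted p = 0.779, limma). CCL2 signal in the median lobe was 1191, 880.5, 1733 and 1130 in medium animals 34, 39, 41 and 42. It was 751.6, 479.5 and 625.2 in low animals 31, 32 and 33 and 730.2, 277.3 and 417.2 in air animals 28, 29 and 44. Every medium animal was above every air and low animal there, with animal 41, which has no apical array, the highest. The mean was 1234 ± 359 (SD, n = 4) in medium, 618.8 ± 136.2 (SD, n = 3) in low and 474.9 ± 231.9 (SD, n = 3) in air animals. Medium differed from air by 1.37 ± 0.32 (unadjusted p = 0.00148, adjusted p = 0.0812) and from low by 0.91 ± 0.32 (unadjusted p = 0.0162, adjusted p = 0.142). Over the other settings the difference from air ranged from 1.04, without air animal 29, to 1.73, without air animal 28, and the adjusted p from 0.0537 to 0.277.

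The lowest single signals of CCL8 (31.71) and CCL5 (269.5) were also in the median lobe, both in medium animal 41. Those of CCL3L1, CCL4 and CXCL9 were in the median lobe of a medium animal too. CCL8 in the median lobe was 496.4, 222.6 and 236.6 in low animals 31, 32 and 33 but 232.4, 86.18, 31.71 and 100.5 in medium animals 34, 39, 41 and 42, a difference of -1.52 ± 0.50 (adjusted p = 0.128). The medium animals overlapped the low group only through animal 34, and without that animal the difference was -1.92 and was called (adjusted p = 0.0406). CXCL9 was 668.5, 1111 and 1009 in the low animals and 1033, 388.2, 294.1 and 376.2 in the medium animals, a difference of -0.99 ± 0.43 (adjusted p = 0.211), which without animal 34 was -1.37 and was called (adjusted p = 0.0476). Animal 34 thus lay within the low-dose range of CCL8 and CXCL9 in this lobe. Without animal 34, limma called 1312 of all 23999 probe sets in medium versus low of this lobe, against 5 with it. The calls of CCL8 and CXCL9 came among these. CCL5 was 594.5, 326.5, 269.5 and 500.9 in the medium animals and 592, 663.2 and 612 in the low animals, which overlapped, and differed by -0.62 ± 0.25 from low (adjusted p = 0.185) and by -0.60 ± 0.25 from air (adjusted p = 0.239). In low versus air, CCL3L1 was 95.68, 107.7 and 107.7 in low and 248.8, 110 and 118.6 in air animals, which did not overlap, with a difference of -0.49 ± 0.28 (adjusted p = 0.729) that was -0.15 without air animal 28.

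In the median lobe 0 of 6 were called in low versus air (0% of all probe sets), in medium versus air (0.404%) and in medium versus low (0.0208%). At an unadjusted p under 0.05 there were 0, 2 (CCL2 and CCL5) and 4 (CCL2, CCL5, CCL8 and CXCL9) of the 6, against 6.93%, 18.6% and 22.4% of all probe sets in the same comparisons. Groups did not overlap for 1 of 6 in each of these comparisons, CCL3L1 in low versus air (16% of all probe sets) and CCL2 in medium versus air (15.1%) and in medium versus low (18.9%).

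In the caudal lobe CCL2 did not stand out. Its signal was 1035 in medium animal 34 but 432.3 and 443 in animals 41 and 42, near the air values of 674.5, 219.1 and 414, and the difference of medium from air was 0.54 ± 0.46 (adjusted p = 0.611). CCL8 was 114.9, 84.55 and 52.79 in medium animals 34, 41 and 42 and 135.6, 139.2 and 230.9 in low animals 31, 32 and 33, which did not overlap (-0.92 ± 0.29, unadjusted p = 0.0112, adjusted p = 0.383). CXCL9 was 462.4, 369.6 and 410.5 against 506.8, 1286 and 900.2, also without overlap (-0.98 ± 0.45, adjusted p = 0.518). These 2 of 6 compare with 13.1% of all probe sets whose groups did not overlap in this comparison. The medium group of this lobe lacks animal 39.

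In the apical lobe the largest difference from air was in CCL4. Its signal was 713.4, 482.6 and 350.4 in medium animals 34, 39 and 42, 422.2, 238.1 and 366.7 in air animals 28, 29 and 44, and 270.2, 370.2 and 330.4 in low animals 31, 32 and 33. Medium and air overlapped, as did medium and low. The differences were 0.53 ± 0.27 from air (adjusted p = 0.880) and 0.56 ± 0.27 from low (adjusted p = 0.477), which were 0.27 and 0.30 without medium animal 34, and the former 0.29 without air animal 29. CCL4 was thus above air in the apical lobe and below it in the median (-0.39 ± 0.32) and caudal (-0.68 ± 0.44) lobes, but animal 41, the lowest in CCL4, has no apical array. In both the apical and the caudal lobe 0 of 6 were called in low versus air, medium versus air and medium versus low, where 0% of all probe sets were called except for 0.00417% in medium versus air of the caudal lobe. By limma's unadjusted p under 0.05, CCL8 in medium versus low of the caudal lobe was the 1 chemokine past the threshold in these comparisons (9.96% of all probe sets there, and 5.77% to 15.5% in the others).

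Between lobes of the same animal, CCL2 was lower and CCL4 higher in the apical than in the median lobe in every animal with both. The CCL2 differences of apical minus median ran from -1.13 to -0.03 in the 9 animals. The limma estimate, fitted to the arrays of all animals, was -0.55 ± 0.19 (unadjusted p = 0.00963, adjusted p = 0.134). The CCL4 differences ran from 0.02 to 0.91, with a limma estimate of 0.33 ± 0.11 (unadjusted p = 0.00668, adjusted p = 0.112). Such a common direction in all 9 animals held for 2 of the 6 chemokines and for 2.99% of all probe sets. CCL3L1 was higher in the apical lobe in 7 of 9 animals (0.25 ± 0.10, adjusted p = 0.218), and the other differences were 0.04 ± 0.08 for CCL5, -0.13 ± 0.22 for CCL8 and -0.21 ± 0.12 for CXCL9. Median minus caudal was 0.53 ± 0.19 for CCL2 and 0.53 ± 0.22 for CCL8, each higher in the median lobe in 8 of 9 animals (adjusted p = 0.300 and 0.351), and -0.27 ± 0.11 for CCL4 and -0.25 ± 0.10 for CCL3L1, each higher there in 2 of 9 (adjusted p = 0.340 and 0.361). Apical minus caudal ran from -0.05 to 0.05 for the 5 genes other than CCL8 (0.41 ± 0.23, adjusted p = 0.447). Of the 6, 0 were called in apical versus median, where 2.38% of all probe sets were, 0 in apical versus caudal (0.167%) and 0 in median versus caudal (0%), while 3, 0 and 4 of the 6 had an unadjusted p under 0.05 by limma in these contrasts, against 16.6%, 13.6% and 11.6% of all probe sets.

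**Figure D3:**
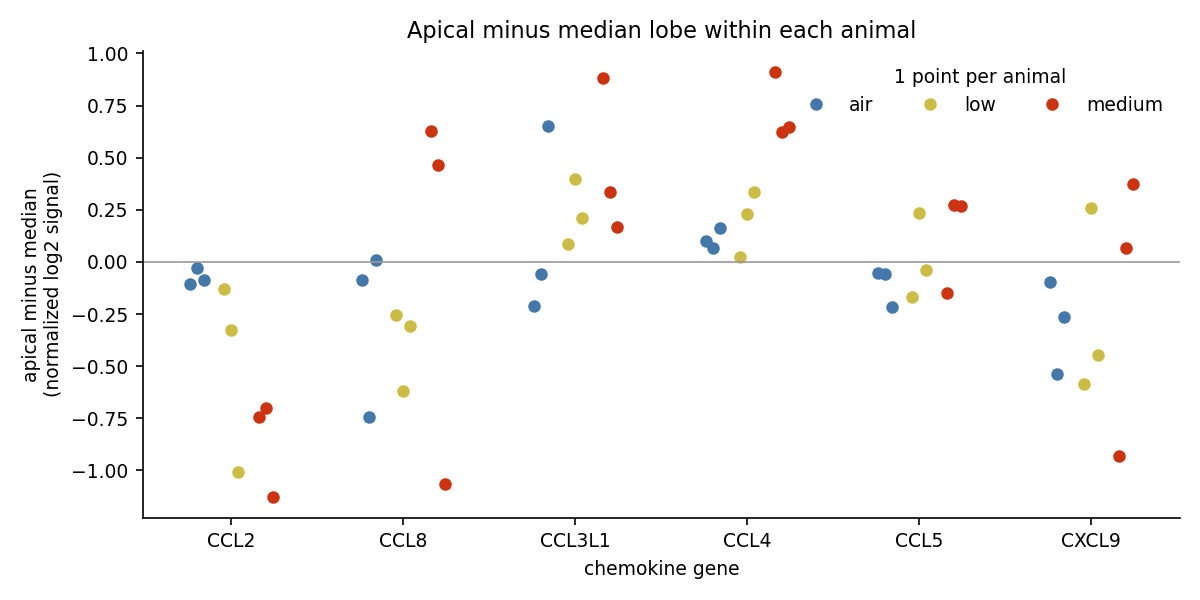
Apical minus median lobe for each chemokine, in normalized log2 signal, with 1 point for each of the 9 animals that have both lobes (3 of each exposure). All 9 points of CCL2 are below 0 and all 9 of CCL4 above 0, and the medium animals lie farthest from 0 for CCL4.

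The contrast of the lobes was examined within each exposure after these values were seen. In medium animals 34, 39 and 42 CCL4 was 713.4, 482.6 and 350.4 in the apical and 364.1, 304.4 and 213.1 in the median lobe, higher in the apical lobe in 3 of 3. CCL4 rose by 0.71 ± 0.14 in apical against median lobes of medium animals (adjusted p = 0.0132), a contrast in which 5.03% of all probe sets were called. The call was lost without animal 39 (adjusted p = 0.0502) or without animal 42 (adjusted p = 0.0633), with differences of 0.75 and 0.70. In air animals the difference was 0.11 ± 0.14 and in low animals 0.20 ± 0.14 (adjusted p = 0.984 and 1.00), with apical higher in 3 of 3 of each. The CCL2 difference of apical minus median was -0.995 ± 0.30 in medium (adjusted p = 0.0680), -0.49 ± 0.31 in low and -0.08 ± 0.31 in air animals, and CCL2 was 1.08 ± 0.30 higher in the median than in the caudal lobe of medium animals (adjusted p = 0.365, 3 of 3). CCL4 was the 1 of 6 called in apical versus median of medium animals, and 0 of 6 were called in apical versus caudal (0.0958%) and median versus caudal (0%). By limma's unadjusted p under 0.05, CCL2, CCL3L1 and CCL4 passed in apical versus median of medium animals (20.8% of all probe sets). Only CCL4 passed in their apical versus caudal lobes (12.2%) and only CCL2 in their median versus caudal lobes (7.58%). In median versus caudal of low animals CCL3L1 (-0.47 ± 0.18, adjusted p = 0.401) and CCL4 (-0.37 ± 0.14, adjusted p = 0.421) passed it too (9.33% of all probe sets). A difference that passes in medium and not in air animals does not by itself show that the exposures differ. The test of that, the interaction of exposure and lobe, called 0 of 6 by limma (0% of all probe sets, 7.39% of which had an unadjusted p under 0.05), with an adjusted p = 0.597 for CCL4, the 1 chemokine with an unadjusted p under 0.05, and an adjusted p = 0.779 for CCL2.

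**Figure D4:**
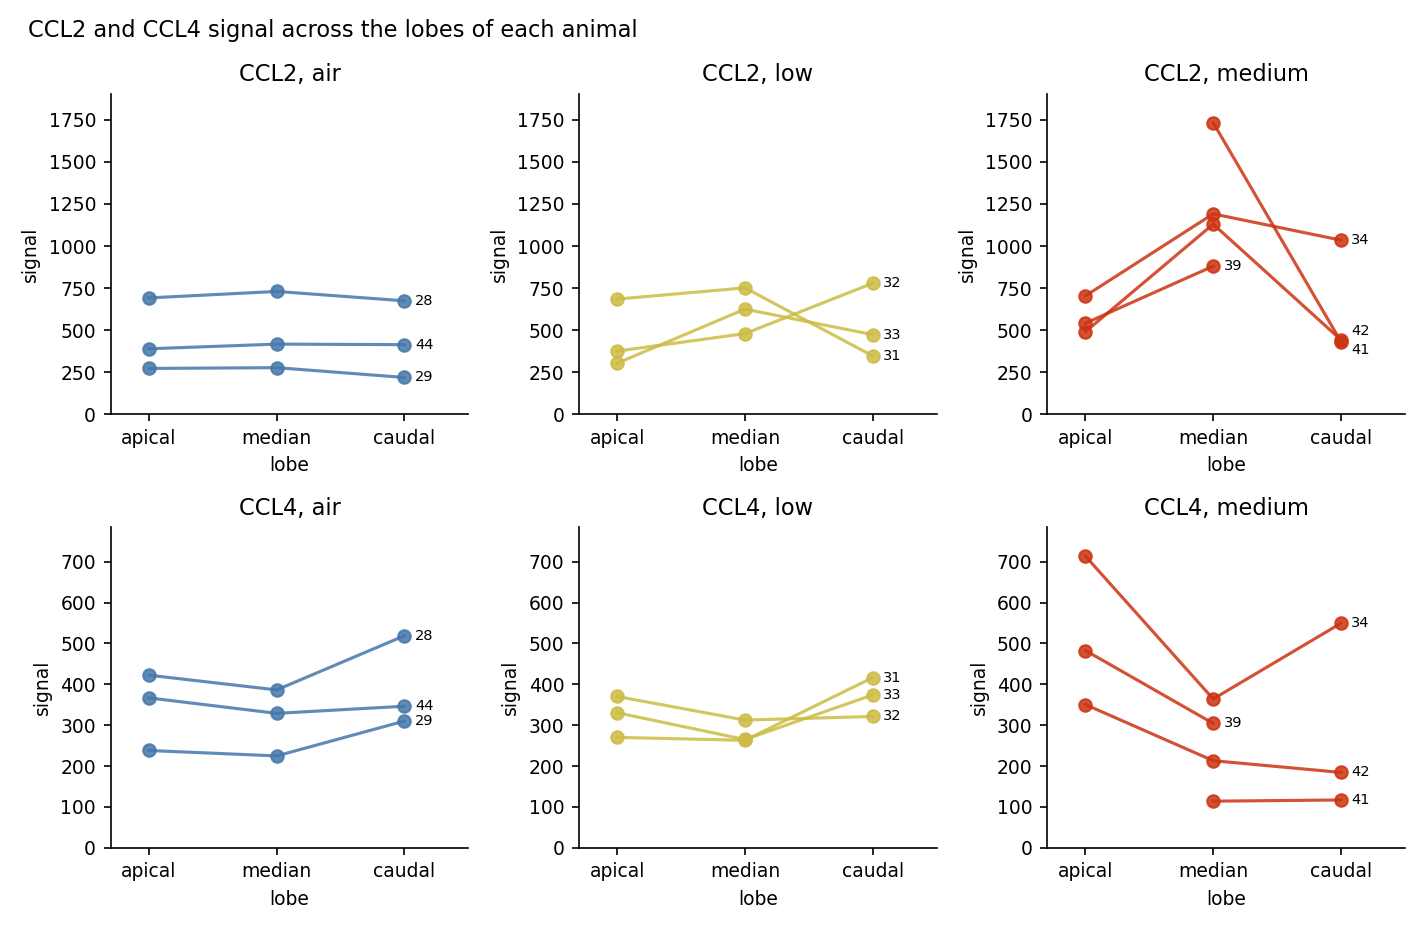
Deposited signal of CCL2 (upper panels) and CCL4 (lower panels) in the apical, median and caudal lobes, with 1 line per animal, labelled by number, for air, low and medium exposure. CCL2 is nearly level across the lobes of air animals and is highest in the median lobe of all 4 medium animals, and CCL4 is lower there than in the apical lobe in the 3 with both.

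Ordering the 9 combinations of exposure and lobe by mean signal put the medium median lobe first for CCL2 (1234 ± 359, n = 4), followed by the medium caudal lobe (636.8 ± 344.9, n = 3) and the low median lobe (618.8 ± 136.2, n = 3). The first step was larger than the larger SD of the pair, and the other 7 of 8 neighbouring pairs of CCL2 differed by less. CCL8 was highest in the low median lobe (318.5 ± 154.2) and lowest in the medium caudal lobe (84.08 ± 31.06). CXCL9 ran from 929.5 ± 231.7 in the low median lobe to 414.2 ± 46.51 in the medium caudal lobe, and CCL4 from 515.5 ± 183.7 in the medium apical to 248.9 ± 109.2 in the medium median lobe. CCL5 ran from 642.6 ± 136.7 in the low apical to 422.8 ± 150.9 in the medium median lobe, and CCL3L1 from 176.6 ± 79.05 in the air caudal to 97.92 ± 30.93 in the medium median lobe. The medium median lobe was thus last for CCL3L1, CCL4 and CCL5 and first for CCL2. The medium groups are not made of the same animals, however. Animal 41, the lowest of the 10 animals for CCL3L1, CCL4 and CCL5, has no apical array, and animal 39 has no caudal array. The part of this in the order was not tested. Of 8 neighbouring pairs, 7 for CXCL9 and 8 for CCL3L1, CCL4, CCL5 and CCL8 were within the larger SD.

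The chemokines were among the probe sets that vary most between animals of the same exposure. The SD between animals within an exposure was 0.62 for CXCL9, 0.61 for CCL8, 0.59 for CCL4, 0.47 for CCL3L1, 0.43 for CCL2 and 0.31 for CCL5 on the log2 scale, at percentiles 99.3, 99.3, 99.2, 98.0, 97.1 and 91.2 of all probe sets, whose median SD was 0.15. Between lobes of an animal CCL8 (0.51, percentile 99.7) and CCL2 (0.45, percentile 99.4) varied most, and CCL5 (0.17, percentile 56.7) about as much as a typical probe set. By the animal values adjusted for lobe, the same animals were often at the ends of the range. Air animal 28 was the highest of the 10 for CXCL9 and CCL3L1 and the highest air animal for CCL2, CCL4 and CCL8. Medium animal 34 was the highest medium animal for CCL2, CCL3L1, CCL4, CCL8 and CXCL9, although its plain CCL2 mean over lobes was below that of animal 41. Medium animal 41 was the lowest of all 10 for CCL3L1, CCL4, CCL5, CCL8 and CXCL9, yet its median lobe had the highest CCL2 signal of the 28 arrays. Among the 4 medium animals, and in their median lobes, the gap of the most extreme value to its neighbour was divided by the range. This ratio stayed below Dixon's critical value of 0.829 for all 6 genes, and was highest for CXCL9 in the median lobe (0.792, animal 34). With 4 values only a very large gap exceeds that limit, so the comparison does not show that no animal was extreme.

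Over the 28 arrays, which share animals and exposures, CCL3L1 and CCL4 followed each other most closely of the 15 pairs (r = 0.846). CCL2 was nearly unrelated to CCL3L1, CCL4, CCL8 and CXCL9 (r from -0.037 to 0.047) and ran opposite to CCL5 (r = -0.427), while pairs among the other 5 genes, apart from CCL3L1 with CCL4, had r from 0.145 to 0.508. Among all genes, the pattern most like that of CXCL9 was GBP1, an interferon-induced guanylate-binding protein (r = 0.903), followed by PTGFR (0.810) and LRRC51 (0.803). CCL5 was most like BIN2 (0.804), the hematopoietic GTPase RAC2 (0.80) and the T cell receptor subunit CD3E (0.794). CCL4 was most like TREX1 (0.868), CCL3L1 (0.846) and KLK7 (0.820), and CCL3L1 like CCL4, KYNU (0.836) and GLRX (0.820). CCL2 was most like GRPEL1 (0.825), EXOSC5 (0.816) and LRRC59 (0.810), and CCL8 like UBE2E3 (0.826), HMGN1 (0.813) and MRPS14 (0.807).

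The other genes of these pathways and the marker genes of the cells that make or answer the chemokines were described from fixed lists, each by its counts beside the median of all probe sets, which was -0.000437 in medium versus air and 0.00299 in medium versus low. Of the 114 list genes measured, limma called 0 in any exposure comparison. By its unadjusted p under 0.05, 8 passed in low versus air, 18 in medium versus air and 19 in medium versus low. The shares of all probe sets there were 7.41%, 16.6% and 18.2%. In apical versus median lobes 6 of the 114 were called, where 2.38% of all probe sets were. Of 27 other chemokines, 14 were measured, with 4 above 0 in medium versus air and a median of -0.06. CXCL2 (1.06 ± 0.25, adjusted p = 0.106) and CXCL8 (0.65 ± 0.18, adjusted p = 0.138), which attract neutrophils, had the smallest p of that list. In apical versus median lobes CXCL8 rose by 0.52 ± 0.13 (adjusted p = 0.0380) and CXCL14 by 0.23 ± 0.05 (adjusted p = 0.0383), the 2 of 14 called. The receptors had 8 of 22 measured, with 6 below 0 and a median of -0.07 in medium versus air. CCR2, the receptor of CCL2, differed by -0.01 ± 0.11 (adjusted p = 0.978), and CXCR3 was not measured under 1 symbol.

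Of the inducing pathways, the interferon gamma list had 14 of 17 measured and 11 below 0 in medium versus air (median -0.16), where CXCL9 differed by -0.73. Its ligand IFNG differed by -0.18 ± 0.18 (adjusted p = 0.669) and its transcription factor IRF1 by -0.37 ± 0.17 (adjusted p = 0.308), and GBP1 differed by -0.60 ± 0.25 in medium versus low (adjusted p = 0.247). In medium versus low, where CXCL9 differed by -0.95, the list was more evenly split, with 8 of the 14 below 0 and 6 above (median -0.06). Of 14 measured type I interferon-stimulated genes, 8 were above 0 in medium versus air (median 0.08), and IFI44L rose by 0.24 ± 0.06 in apical versus median lobes (adjusted p = 0.0403). The NF-kappaB list had 12 of 18 measured and 8 above 0 (median 0.05). The cytokine TNF differed by -0.37 ± 0.17 (adjusted p = 0.313) and the inhibitor NFKBIA by 0.20 ± 0.14 (adjusted p = 0.501).

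T and NK cell markers had lower values in the medium animals, as CCL5 and CXCL9 did. Of 22, 12 were measured and 11 were below 0 in medium versus air (median -0.42) and in medium versus low (median -0.46). The granule gene GNLY differed by -1.26 ± 0.29 (adjusted p = 0.0974) and CD3E by -0.43 ± 0.12 (adjusted p = 0.135) from air. The summed signal of the list was 2059 to 2513 on air arrays, 1641 to 2784 on low arrays and 903.1 to 2081 on medium arrays. Its part in the CCL5, CCL8 and CXCL9 values was not tested.

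Monocyte and macrophage markers had 9 of 14 measured, with 7 below 0 in medium versus air (median -0.14) and 8 below 0 in medium versus low (median -0.29). AIF1 differed by -0.43 ± 0.13 (adjusted p = 0.163) and CD14 by 0.82 ± 0.44 (adjusted p = 0.378) from air, and the summed signal was 4409 to 5780 on air, 4366 to 6621 on low and 2819 to 6513 on medium arrays. FCGR1A fell by 0.22 ± 0.06 in apical versus median lobes (adjusted p = 0.0498), the 1 of 9 called there, but 7 of the 9 were above 0 in that contrast (median 0.06), the opposite direction. Neutrophil markers (6 of 14 measured) had 3 above 0 in medium versus air (median 0.07), with summed signals of 1411 to 2202 on air and 1633 to 2386 on medium arrays. B and plasma cell markers (2 of 11 measured) were both below 0 (median -0.32), and CD79B rose by 0.27 ± 0.07 in apical versus median lobes (adjusted p = 0.0438). Erythroid markers (3 of 6 measured) were all above 0 in medium versus air (median 0.39), with summed signals of 548.5 to 1028 on air and 698.9 to 1220 on medium arrays. The muscle marker ACTC1 fell by 0.45 ± 0.10 in apical versus median lobes (adjusted p = 0.0314), and the part of any of these cell types in the lobe differences of CCL2 and CCL4 was not tested.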

How the data were processed

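Total RNA of 28 lung samples was labelled with biotin and hybridized to the Affymetrix porcine array, per the labels. The deposited values are linear signal intensities of probe sets, with a column for each array. The summarization software and scaling target are not given in the sources used here. Of 24123 probe sets, 124 controls were left out and 23999 tested with no filter. The supplied annotation gave 1 symbol for 10069, several for 198 and none for 13732, and 9961 of the first matched RefSeq, which changed 0 symbols. Each gene in a list was represented by its brightest probe set.

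Values were log2(signal + 16), quantile normalized because lower quartiles differed by 0.316, above a limit of 0.2. Fits used limma 3.58.1 in R 4.3.3 over all probe sets, with Benjamini-Hochberg adjustment and calls at an adjusted p under 0.05. Pandas 2.3.3 and matplotlib 3.10.9 in Python 3.11.15 made tables and figures. For exposures, 1 value per animal was the animal's coefficient in a linear model with terms for animal and lobe, and the 3 groups were fitted together. Exposures were also fitted within each lobe. Lobes were compared with the animal as a fixed block, since the titles give the animal of each lobe, and the interaction was a moderated F test of 4 coefficients. Lobe contrasts within each exposure were added after seeing the data. The steps were tested on simulated data. The number of animals and arrays limits the precision. The p-values of the exposure comparisons measure the spread between animals. Those of the lobe contrasts and the interaction measure the spread within animals, since the animal was a fixed block.

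The named genes are the 6 chemokines, the 3 genes of highest correlation with each, the called members of each list (up to 4) or otherwise the 2 of smallest p, and IFNG, IRF1, NFKBIA, TNF, CCR2 and CXCR3 where measured. Other genes of this rule are not reported here. Genes of each list that were not named are given in counts. The chemokines, lists and tests were chosen with earlier results of these data known.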

Additional observations from a re-analysis of the deposited data

How the results depend on the processing

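No call among the 6 chemokines was made in the planned comparisons under any other scaling, offset, brightness filter, moderation or model of the animal. Leaving out each animal in turn, 0 to 1 of 6 were called in medium versus low and 0 to 2 in its median lobe, the calls coming without medium animal 34 (CCL8, and CCL8 with CXCL9). The call of CCL4 in apical versus median of medium animals kept its direction (0.66 to 0.75), and CCL2 in that contrast was called with the brighter probe sets (adjusted p = 0.0351), with trend and robust moderation (0.0455) and without low animal 31 (0.0312). With the brighter probe sets alone, 1688 were called in that contrast, against 1207 of all 23999 in the main fit, so the CCL2 call was 1 of many. Counts over all probe sets depended on the setting, from 0 to 1044 around 31 in medium versus air, 0 to 1401 around 1 in medium versus low, 0 to 28 around 0 in low versus air, 0 to 398 around 97 and 0 to 1312 around 5 in the median lobe for medium versus air and versus low, 0 to 1005 around 570 in apical versus median, 0 to 150 around 40 in apical versus caudal, and 161 to 1688 around 1207 in apical versus median of medium animals. The highest counts over animals came with a random animal block, a fit that uses lobes of an animal as partly separate samples. In the median lobe the highest counts, 398 and 1312, came without medium animal 34.

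Differences near 0 changed sign, and the cause was not tested. With the deposited scaling, median-centred arrays and a random animal block CCL5 in median versus caudal was -0.00293, -0.0338 and -0.0101. CCL3L1 in apical versus caudal was 0.00061 with an offset of 1 and 0.0458 with a random block. With no replicate block, that is without pairing lobes by animal, it was 0.0897, CCL5 in median versus caudal -0.0552 and CCL8 in apical versus median 0.00533. In the 8 animals with all lobes CCL4 was 0.0708 in medium versus air and 0.134 in medium versus low, and CCL5 in apical versus median -0.0233. With only the air animals CCL5 in apical versus median was -0.11, and in apical versus caudal CCL2 was 0.0846 and CCL4 -0.18. With the RNA index as a covariate CCL5 in low versus air was -0.14. Without 1 animal at a time, low versus air ran from -0.0669 to 0.64 for CCL2, -0.26 to 0.11 for CCL4, -0.0571 to 0.19 for CCL5 and -0.16 to 0.68 for CXCL9. Medium versus air ran from -0.55 to 0.11 for CCL4. Medium versus low ran from -0.35 to 0.0507 for CCL3L1 and -0.49 to 0.17 for CCL4, and in the median lobe from -0.19 to 0.0516 for CCL3L1 and -0.48 to 0.0277 for CCL4. Apical versus caudal ran from -0.15 to 0.11 for CCL2, -0.0473 to 0.0863 for CCL3L1 and -0.0509 to 0.14 for CCL4, and median versus caudal from -0.0469 to 0.0747 for CCL5. Averaging the probe sets of a gene was not run as an alternative, since each chemokine has 1 probe set.

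The groups held 3 or 4 animals, and the SD of a chemokine between animals of an exposure was 0.31 to 0.62.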
